A study of Xenopus laevis with 18 samples.

Results

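The 227 gene models described here had a low median in the early embryo of the frog Xenopus laevis, began a lasting presence of at least 1 TPM at stage 12, late in gastrulation, and were still present in the tailbud. They were picked from 31357 gene models by their own expression values. A model was kept if its median over stages 0, 2, 6, 6.5 and 7 was under 0.5 TPM (a share of all transcripts corrected for their length), its maximum lay between 20 and 100 TPM, and its mean over stages 23, 26, 30 and 33 was at least 25% of that maximum. Its onset had to be stage 12: onset was set, among stages 8 and later, at the earliest one with 1 TPM or more that was followed by a stage of the same standing. Of 863 models that met the conditions on level, 227 had this onset, 64 began at stage 10 and 155 at stage 14. The low early level, the onset and the presence in the tailbud are therefore given as a description and were not tested.

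The data were poly(A)-selected RNA sequencing of whole embryos of the J strain, an inbred line, with 18 stages on the Nieuwkoop-Faber scale by which Xenopus embryos are staged and a single library per stage. The embryos were untreated, raised in MMR saline with gentamycin and frozen at the chosen stage. Neighbouring stages were grouped as late tailbud (30 and 33), early tailbud (23 and 26), late neurula (18 and 20), early neurula (14 and 16), gastrula end (12), gastrula start (10), blastula (8, 8.5 and 9) and early (0 to 7). The stages of a group are different time points and not replicates, so the spread within a group also holds developmental change. The SEs and p-values of the comparisons rest on that spread.

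In a frog embryo the first divisions run on RNA and protein stored in the egg, and large-scale transcription from the embryo's genome begins at the mid-blastula transition. During gastrulation the cells that will form mesoderm and endoderm move inside and the germ layers take their places. At its end the dorsal ectoderm is set aside as the neural plate, which closes into a tube during neurulation, while somites, notochord and placodes take shape. The deposited table names its models by identifiers made by the authors and gives no gene symbols, and 0 identifiers matched the RefSeq list of the species. No function is therefore given to any model, and the tissue was not checked by marker genes. In whole embryos, more cells of one kind and more RNA per cell cannot be told apart.

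Sequencing depth is unknown, because TPM keeps no read numbers, and a model at exactly 0 is described as listed at 0. Measurement error was read from 37 synthetic spike-in RNAs present in every library and with a mean of at least 10 TPM. Their shares of the spike-in total had a median SD of 0.31 on the log2 scale over the 18 libraries, with a range from 0.17 to 0.75. The error at lower levels, such as around the bound of 1 TPM, was not measured. A pair of models that switched between 0 and very high values was above 0 in 5 libraries, where it held 21.0%, 42.7%, 19.0%, 36.8% and 3.82% of all TPM at stages 2, 6, 8.5, 10 and 30, which lowers every other model there. Among them are 2 of the 5 early libraries on which the condition of 0.5 TPM rests. The columns of stages 0, 20, 23, 26, 30 and 33 carry a suffix, rr, that the labels do not explain.

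Before stage 12 most members were close to 0. Their median was 0.07 TPM at stage 0, 0 in each library from 2 to 9, and 0.1 TPM in that of stage 10. In all, 37 members were listed at 0 in each of the 9 libraries before stage 12, and 197 stayed under 1 TPM in all 9. At stage 10, the onset of gastrulation, 121 members were above 0, 40 of them at 0.5 TPM or more, while 106 were listed at 0. The rule allowed isolated early values: 22 members reached 1 TPM in some early library and 18 in some blastula library. The most extreme was XeXenL6RMv10026285m, singled out after its values were seen. Its values were 17.7, 19.1 and 22.8 TPM at stages 0, 2 and 8; it was listed at 0 at stages 6, 6.5, 7, 8.5, 9 and 10, and moved between 6.1 and 41.9 TPM from stage 12 on. Its level came and went more than once. Another model chosen after its values were seen, XeXenL6RMv10044644m, was the one member listed at 0 after onset, at stage 18, with 6.17 TPM at stage 16 and 16.7 TPM at stage 20.

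At stage 12 the members stood on average well below their later level. Their median was 4.57 TPM, with quartiles of 1.98 and 10.9 TPM and a range from 1 to 73.4 TPM. The 227 models together made up 0.00536% of all gene-model TPM at stage 10 and 0.186% at stage 12. As a share of each model's own maximum the median was 13.3% at stage 12; 94 members were under 10% and 21 were at 50% or more. In all, 59 members entered with less than 2 TPM, and 63 entered with 10 TPM or more. Stage 12 was thus the first stage of a climb for most members and the stage of the maximum for 4.

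**Figure D1:**
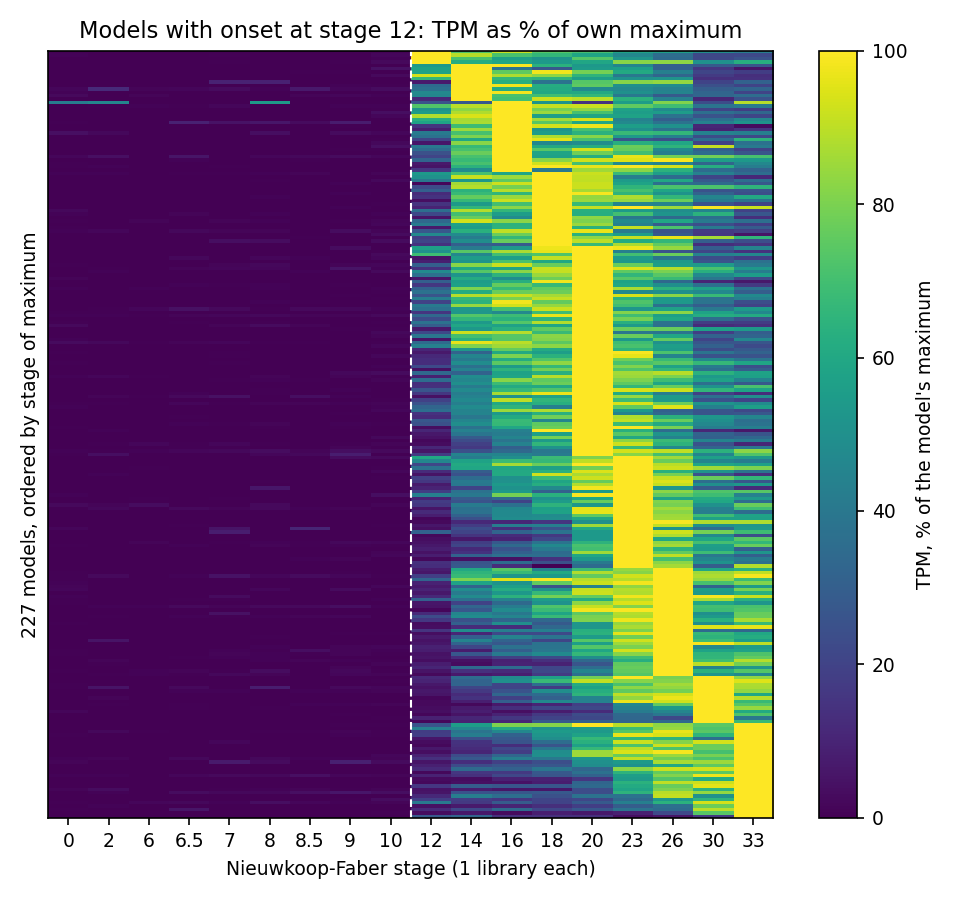
TPM of each of the 227 members as a percentage of its own maximum (colour), by Nieuwkoop-Faber stage on the x axis with 1 library each; rows are models ordered by the stage of their maximum, and the dashed line marks the boundary between stages 10 and 12. The left side is dark apart from isolated cells, as the rule requires, and the brightest cells are spread from stage 12 to stage 33. In these values, TPM as deposited, 62 models had their maximum at stage 20.

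The climb went on through the neurula. The median TPM of the members was 14.45, 18.3, 19.6 and 24.7 at stages 14, 16, 18 and 20. Between stages 12 and 14, 134 members (59.0%) had more than doubled by stage 14 and 1 was more than 2-fold lower, on the log2(TPM + 1) scale. Of all 23880 models tested, 9.85% were higher and 7.63% lower by that much, but the rule used both stages, so nothing is read from the difference. The next steps were smaller. From stage 14 to 16, 12 members passed 2-fold upward (5.29%, against 4.7% of all models) and 3 downward (1.32%, against 1.95%). From stage 16 to 18 these numbers were 8 upward (3.52%, against 3.74%) and 4 downward (1.76%, against 2.86%). From stage 18 to 20, 23 members passed upward (10.1%, against 7.17%) and 1 downward (0.441%, against 1.52%). With median-of-ratios scaling 15 passed upward and 1 downward in this step, and the shares of all models were not computed there. Stage 20 is also the first of these libraries whose column carries the suffix rr, and the part of that suffix in the step was not tested. In all, 81 members were higher at each successive stage from 12 to 20.

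The members differed in when they were highest. The maximum fell at stage 12 or 14 in 15 members, at stages 16 to 20 in 105, at stages 23 or 26 in 65 and at stages 30 or 33 in 42. As deposited, the single most frequent stage was 20, with 62 members, but this depended on the scaling. With median-of-ratios scaling 35 members were highest at stage 18, 34 at stage 20 and 34 at stage 33. Scaled to the spike-in total 65 were highest at stage 20 and 99 at stage 33. The sets by stage of maximum used below rest on TPM as deposited. Of the 227 members, 21 first reached 50% of their maximum at stage 12, 72 at stage 14, 40 at stage 16 and 32 in the tailbud. Levels at the ends of the course were not alike in rank. Across the 227 members, Spearman's rho between libraries was 0.68 between stages 14 and 12, 0.31 between 20 and 12, 0.01 between 23 and 12 and -0.25 between 33 and 12. Neighbouring late libraries had values of 0.89 between 26 and 23 and 0.87 between 33 and 30. These are descriptions over models that share their libraries and whose maxima the rule confined to a narrow range.

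Models that peaked early entered at higher levels. The 15 members highest at stage 12 or 14 had medians of 15.7, 27.4 and 7.52 TPM at stages 12, 14 and 33. The 105 members highest at stages 16 to 20 had medians of 8.42, 31.4 and 10.8 TPM at stages 12, 20 and 33. Those highest at stage 23 or 26 had medians of 2.86, 31.0 and 20.1 TPM at stages 12, 23 and 33. The 42 members highest at stage 30 or 33 had medians of 1.92, 15.5 and 31.3 TPM at stages 12, 20 and 33. The first of these sets was the highest at stage 12 and the lowest at stage 33, and the last was the lowest and then the highest. Because the groups were formed from the same values, no test was made.

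**Figure D2:**
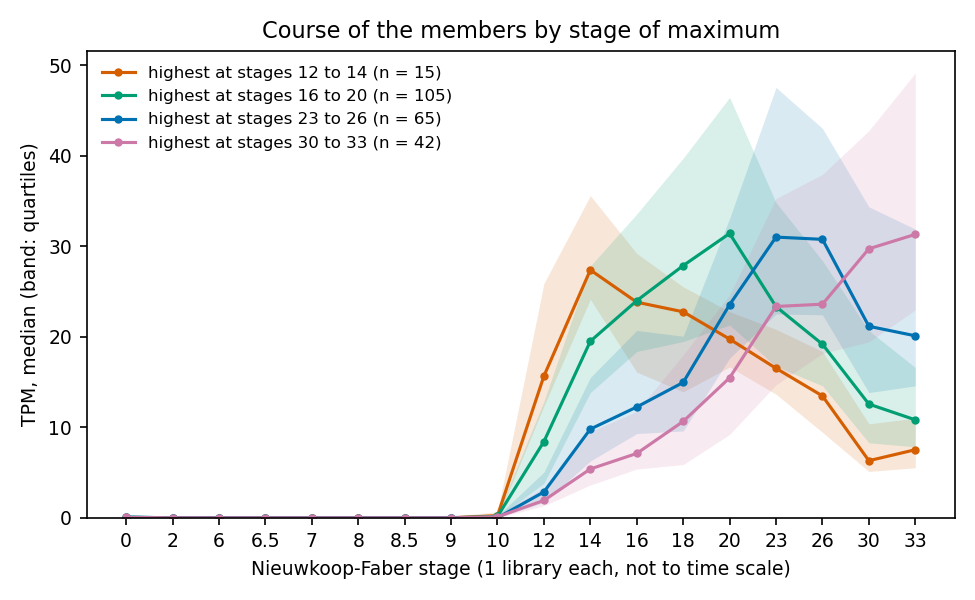
Median TPM (lines) and quartiles (bands) of the members by stage, in 4 sets formed by the stage of the maximum: stages 12 to 14 (n = 15), 16 to 20 (n = 105), 23 to 26 (n = 65) and 30 to 33 (n = 42). The first set stood highest at stage 12, at 15.7 TPM, and the last stood highest at stage 33, at 31.3 TPM.

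The 4 models named for their course had the highest maxima among members highest at stage 33 or by stage 14. XeXenL6RMv10029885m had the highest level at onset: its TPM was 0.11 in the first library, 0 from stage 2 to stage 9, then 0.44 and 73.4 at stages 10 and 12. It then stood at 53.5, 67.0, 54.2 and 51.6 TPM at stages 14, 16, 18 and 20, and at 42.3, 41.3, 36.0 and 31.3 TPM at stages 23, 26, 30 and 33. It reached its maximum in the library of its onset and was lower in each tailbud library than in each neurula library. XeXenL6RMv10001239m was at 0 in all 9 libraries before onset and stood at 23.9 TPM at stage 12. Its values were 44.0, 43.6, 28.2 and 23.4 TPM at stages 14, 16, 18 and 20, and 20.1, 13.5, 12.4 and 11.5 TPM at stages 23, 26, 30 and 33. Every library after stage 14 was lower than the one before it.

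A slow climb was seen in the other two. XeXenL6RMv10014443m was at or under 0.19 TPM in each of the 9 libraries before onset and had 2.02 TPM at stage 12. It had 14.0, 14.96, 24.7 and 33.2 TPM at stages 14, 16, 18 and 20, and 57.6, 68.2, 66.9 and 89.3 TPM at stages 23, 26, 30 and 33. The tailbud libraries all lay above the neurula libraries, and the highest was the last. XeXenL6RMv10045854m, at or under 0.24 TPM in those 9 libraries, entered with 13.0 TPM. It held 24.0, 22.0, 22.1 and 28.2 TPM at stages 14, 16, 18 and 20 and 50.6, 63.5, 79.2 and 82.6 TPM at stages 23, 26, 30 and 33. The neurula values form a plateau, and each tailbud library was higher than the one before.

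**Figure D3:**
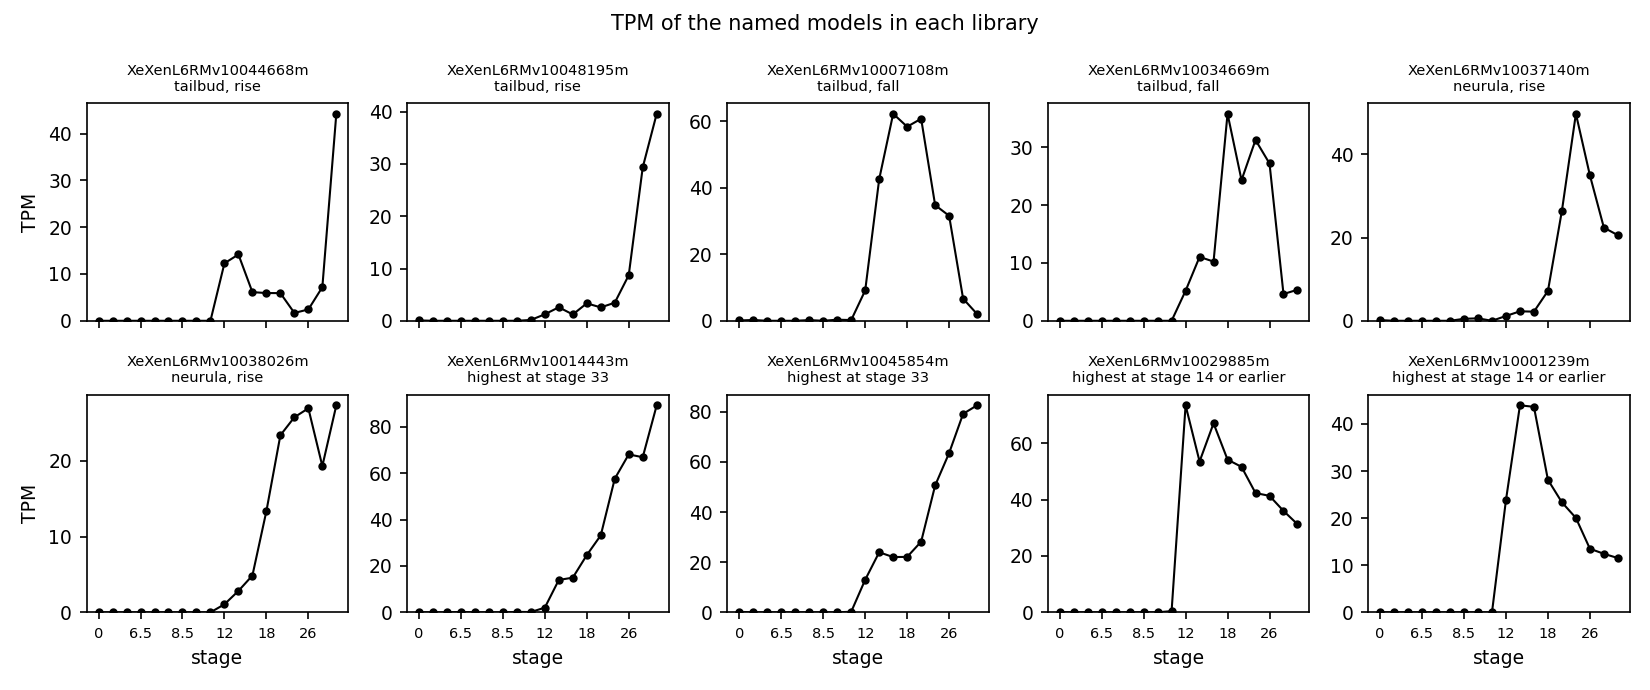
TPM (y axis, linear, starting at 0) of the 10 named models in each of the 18 libraries (x axis, Nieuwkoop-Faber stage, with some stages labelled). The panels show late rises to 44.2 and 39.6 TPM at stage 33, falls to 2.03 and 5.37 TPM at stage 33, rises during the neurula, and courses with the maximum at stage 33 or by stage 14.

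Within the tailbud, members more often fell than rose relative to the RNA pool. The comparison of stages 30 and 33 with stages 23 and 26 asks how models that began late in gastrulation behaved as organs differentiated. The rule used the mean of these 4 libraries and the maximum, not their order, but it also held the members near 0 in the early libraries that enter the spread of the fit. The shares of all models are therefore printed beside those of the members and nothing is read from the difference. Of the 227 members, all of which passed the filter of 1 TPM in 2 libraries, 32 fell (14.1%) and 5 rose (2.2%). Of all 23880 models tested, 1.75% fell and 3.63% rose (limma on log2(TPM + 1), Benjamini-Hochberg adjusted p under 0.05, all 18 libraries in the fit). The median change of the members was -0.58 on the log2 scale, with quartiles of -0.94 and -0.21, against a median of -0.14 over all models. Both late libraries lay below both early ones in 158 members (69.6%, against 40.2% of all models) and above them in 22 (9.69%, against 20.2%). The 32 that fell had a median group mean of 7.75 TPM in the late tailbud and 20.4 TPM in the early tailbud. Of these 32, 27 had their maximum by stage 20. Among all 227 members the maximum lay at stage 12 in 4 and in the neurula in 116. Picking members that fell within the tailbud itself favours an earlier maximum, so nothing is read from the 27.

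XeXenL6RMv10007108m had the largest fall, with 6.66 and 2.03 TPM at stages 30 and 33 in the late tailbud, against 34.8 and 31.6 TPM at stages 23 and 26 in the early tailbud. The log2 change was -2.83 ± 0.39 (SE), with a limma adjusted p of 0.000378. Earlier it had stood at 9.14 TPM at stage 12 and at 42.6, 62.3, 58.4 and 60.8 TPM at stages 14, 16, 18 and 20. Its early tailbud values thus already lay below all its neurula values. XeXenL6RMv10034669m had 4.63 and 5.37 TPM in the late tailbud, against 31.3 and 27.2 TPM in the early tailbud, a change of -2.33 ± 0.26 (SE; limma adjusted p = 7.62e-05). It had been listed at 0 up to stage 10, with 5.19 TPM at stage 12 and 11.1, 10.2, 35.8 and 24.3 TPM at stages 14 to 20. For both models the groups did not overlap. The spread behind these SEs also comes from the early libraries, which the rule held near 0. Over 17 alternatives the limma adjusted p of each model reached 0.126. For XeXenL6RMv10007108m this was in the fit of the 4 tailbud libraries alone.

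The 2 models named for a rise within the tailbud had unlike courses before it. Outside stages 30 and 33 both stayed under 20 TPM. They therefore met the rule's bound on the maximum only through the late tailbud values compared here. Their adjusted p-values add no support to the rise, and the values are given as a description. XeXenL6RMv10048195m had 29.3 and 39.6 TPM at stages 30 and 33, against 3.46 and 8.72 TPM at stages 23 and 26, a change of 2.41 ± 0.34 (SE; limma adjusted p = 0.000405). Between stages 12 and 20 it had not exceeded 3.34 TPM. In the fit of the 4 tailbud libraries alone its limma adjusted p was 0.126. XeXenL6RMv10044668m had 7.18 and 44.2 TPM in the late tailbud, against 1.68 and 2.42 TPM in the early tailbud, a change of 2.67 ± 0.55 (SE; limma adjusted p = 0.00832). Its course had 2 high phases: it stood at 12.3 TPM at stage 12 and 14.2 TPM at stage 14, and between 5.91 and 6.12 TPM from stage 16 to stage 20, before the low values of the early tailbud. Without stage 33 the rise was 1.43 on the log2 scale and no longer passed (limma adjusted p = 0.0518), and without stage 23 it was 2.49 and did not pass either (adjusted p = 0.104). Over 17 alternatives its adjusted p ran from 2.35e-05 to 0.18.

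The number of calls depended on the scaling, the libraries in the fit and single libraries, and the size of the fall depended on the scaling. With the libraries scaled to the spike-in total the median change of the members was -0.21 against 0.19 over all models, and 6 members fell (2.64%, against 0.596%), all among the 32. With median-of-ratios scaling the median was -0.39 against 0.01, and 47 fell (20.7%, against 2.59%), all 32 among them. A fit of the 8 neurula and tailbud libraries, which leaves out those the rule held near 0, was added after the data were seen. It called 21 members lower (9.25%, against 1.84%), 17 of them shared with the 32, and 4 higher (1.76%, against 1.77%). The number that fell dropped most when stage 23 or stage 33 was left out, among the members and over all models. The median change without 1 library stayed between -0.64 and -0.51. In the step from stage 26 to 30, 30 members were more than 2-fold lower at stage 30 (13.2%, against 4.92% of all models) and 8 higher (3.52%, against 3.38%). With median-of-ratios scaling 19 were lower and 9 higher in this step, and without the on/off pair 27 were lower and 8 higher. The shares of all models were not computed in those scalings. In that same step 7 of the 37 spike-ins differed by more than 2-fold in their share of the spike-in total, after their median change was taken out. This measure is unlike the one used for the members, and the part of measurement error in the step was not tested.

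The steps on either side of it were smaller. From stage 20 to 23, 12 members were more than 2-fold higher (5.29%, against 7.16% of all models) and 10 lower (4.41%, against 3.58%). From stage 23 to 26 the numbers were 2 higher (0.881%, against 2.86%) and 1 lower (0.441%, against 1.4%). From stage 30 to 33 they were 6 higher (2.64%, against 2.52%) and 10 lower (4.41%, against 1.57%). The median TPM of the members was 24.3, 22.4, 16.7 and 16.6 at stages 23, 26, 30 and 33. In 83 members each tailbud library was at or below the one before it, and in 10 each was at or above it. At stage 33, 42 members stood at 25% of their maximum or less and 56 at 75% or more.

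**Figure D4:**
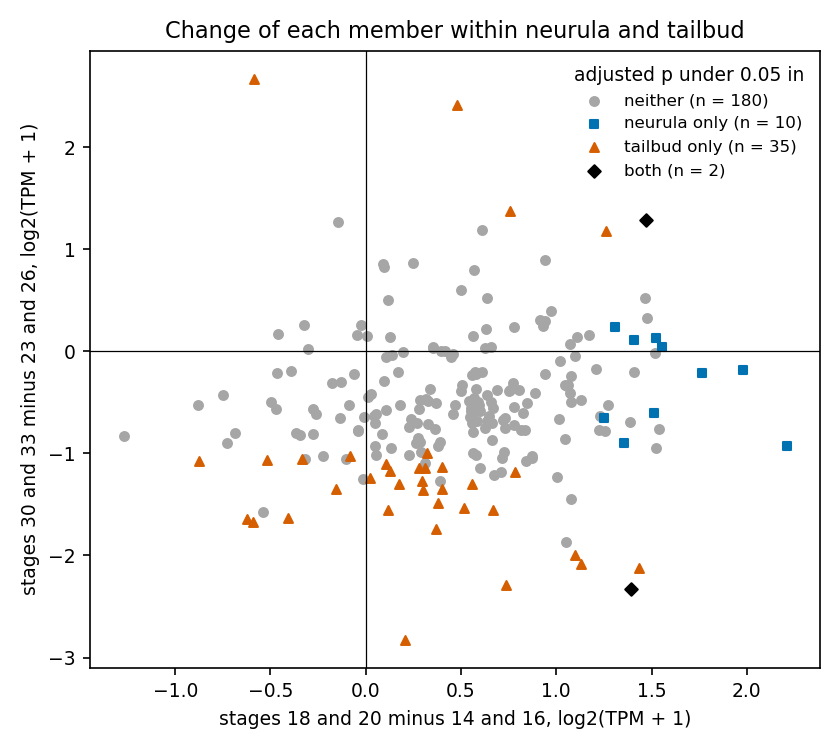
Change of each member on the log2(TPM + 1) scale within the neurula (x axis, stages 18 and 20 minus 14 and 16) and within the tailbud (y axis, stages 30 and 33 minus 23 and 26); symbols give the comparison in which the limma adjusted p was under 0.05. Most points lie at the lower right: 148 members had a positive neurula difference and a negative tailbud difference, and 180 passed in neither comparison. Over all models the medians had the same signs, 0.17 in the neurula and -0.14 in the tailbud. The share of all models with this pair of signs was not computed.

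Within the neurula the members were on average higher at the later stages, but few passed. The rule used stage 14, which had to hold 1 TPM or more, the low early libraries, and the maximum, which lay in the neurula in 116 members. The shares of all models are therefore again given with nothing read from the difference. In stages 18 and 20 against stages 14 and 16, 12 members rose (5.29%, against 2.29% of all models) and 0 fell (against 0.26%). At an unadjusted p under 0.05 in limma there were 80 members and 2509 of all 23880 models. The median difference was 0.55 with quartiles of 0.11 and 0.83, against 0.17 over all models. Both late neurula libraries lay above both early ones in 123 members (54.2%, against 32.7%) and below them in 17 (7.49%, against 11.7%). Of the 12 that rose, 9 went on to a maximum in the tailbud, against 107 of all 227 members. Picking members that rose within the neurula itself favours a later maximum, so nothing is read from the 9. XeXenL6RMv10037140m had 7.17 and 26.5 TPM at stages 18 and 20, against 2.28 and 2.2 TPM at stages 14 and 16, a change of 2.21 ± 0.44 (SE; limma adjusted p = 0.0134). It was highest at stage 23, at 49.8 TPM, and stood at 35.0, 22.4 and 20.6 TPM at stages 26, 30 and 33.

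XeXenL6RMv10038026m had 13.4 and 23.4 TPM in the late neurula, against 2.83 and 4.86 TPM in the early neurula, a change of 1.98 ± 0.31 (SE; limma adjusted p = 0.00309). It was listed at 0 up to stage 10, entered at 1.06 TPM and stayed between 19.3 and 27.4 TPM from stage 23 on. Both models thus entered near the bound of 1 TPM and reached their level only after stage 16. The neurula calls were fragile. The number that rose dropped without stage 14 or 20 and grew without stage 16 or 18, among the members and over all models. The median difference of the members without 1 library lay between 0.33 and 0.69. The fit of the 8 neurula and tailbud libraries called 0 members in either direction (against 0.00419% of all models higher and 0.0168% lower). It had 96 members at an unadjusted p under 0.05, and 4357 of all 23880 models. In that fit XeXenL6RMv10037140m and XeXenL6RMv10038026m kept changes of 2.21 and 1.98 but not their calls (limma adjusted p = 0.151 and 0.109; over 17 alternatives each, 0.000195 to 0.424 and 0.000593 to 0.406). Without stage 20 the change of XeXenL6RMv10037140m was 1.33 (adjusted p = 0.101). With median-of-ratios scaling the median difference was 0.36, against 0.03 over all models, and 22 members rose (9.69%, against 3.47%) and 5 fell (2.2%, against 0.849%).

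The late course of the members depended on the scaling. The contrast of the tailbud change with the neurula change was below 0 for 41 members (18.1%, against 3.24% of all models) and above 0 for 2 (0.881%, against 1.98%, limma adjusted p under 0.05) as deposited. The rule used values on both sides of this contrast, so nothing is read from these shares. Over the 4 other scalings the count below 0 ranged from 10 with spike-in scaling to 53 without the on/off pair. The counts over all models there were 288 of 25003 and 887 of 23968. Over all alternatives it ranged from 1, in the fit of 8 libraries, to 78, with a pseudocount of 5. Over all 23880 models these 2 settings gave 5 and 1114. As deposited, the median over members as a share of each model's maximum was 80.3%, 76.2%, 73.9%, 49.9% and 51.9% at stages 20, 23, 26, 30 and 33. With median-of-ratios scaling it was 70.6%, 73.4%, 70.5%, 57.8% and 58.8% at the same stages. Scaled to the spike-in total it was 67.5%, 55.7%, 78.6%, 38.5% and 93.3%, with lows at stages 23 and 30. In that scaling 99 of the 227 members had their maximum at stage 33, against 28 as deposited. Spike-ins made up 3.15%, 3.61%, 2.24%, 3.12% and 1.49% of all TPM at stages 20, 23, 26, 30 and 33, and the sources used here do not state the amount added per embryo. The falls in TPM are falls relative to other poly(A)+ RNA. Relative to the spike-ins the median level of the members was 27.1 and 56.4 scaled TPM at stages 30 and 33, against 34.1 and 50.9 at stages 23 and 26, so the groups overlapped, and 77 of the 227 members had a positive tailbud difference.

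**Figure D5:**
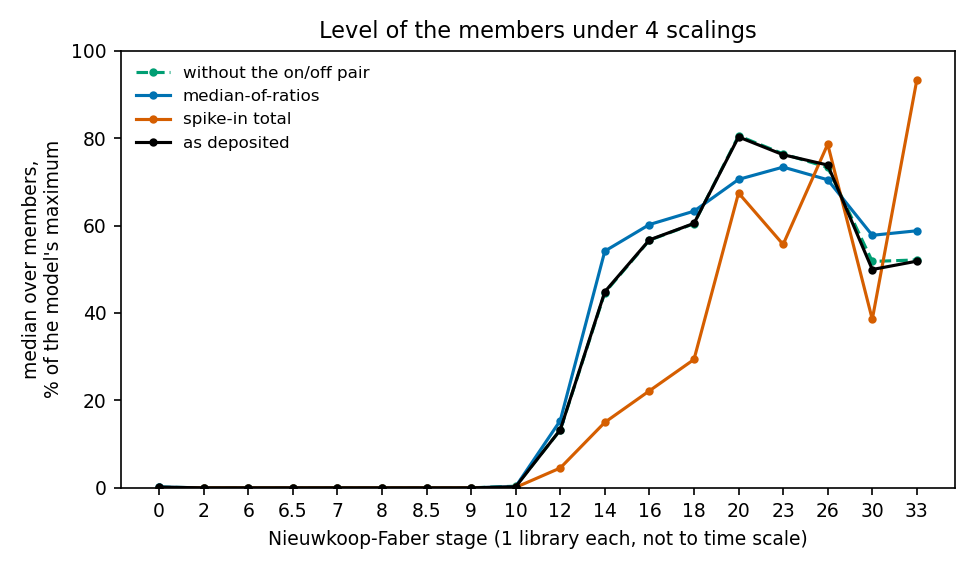
Median over the 227 members of the level as a percentage of each model's maximum (y axis) by stage (x axis), for TPM as deposited, without the on/off pair, after median-of-ratios scaling and after scaling to the spike-in total. All 4 curves leave 0 at stage 12; at stage 33 the deposited curve stands at 51.9% and the spike-in curve at 93.3%, after 38.5% at stage 30.

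How firmly the onset can be placed at stage 12 depends on how the libraries are scaled. Rescaling without the on/off pair multiplies stage 10 by 1.58, which moved the onset of 24 members to stage 10 and left 197 at stage 12. Applied to those values the whole rule kept 195 models, of which 193 were members. After median-of-ratios scaling 206 members kept their onset and 21 moved to stage 10; the rule then kept 257 models, and the 194 shared ones were 85.5% of the members and 75.5% of the 257. Scaled to the spike-in total 197 members kept their onset and 27 moved to stage 14, while the rule kept 347 models, whose 143 shared ones were 63.0% of the members and 41.2% of the 347. With a threshold of 2 TPM 54 members moved to stage 14, and with 0.5 TPM 28 moved to stage 10 and 20 to the blastula.

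The members nearest the bounds were close to models left out. The lowest value at stage 12 among the members was 1 TPM, and the highest among models placed at stage 14 was 0.97 TPM. At stage 10 the highest member stood at 0.97 TPM and the lowest model placed at that stage at 1.01 TPM. The maxima of the members ran from 20.1 to 93.4 TPM, with 19.9 and 103.8 TPM just outside. The highest early median inside was 0.49 TPM and the lowest outside 0.5 TPM. The lowest tailbud mean inside was 25.5% of the maximum and the highest outside 23.5%.

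Models with the neighbouring onsets, chosen by the same rule, reached their level at other times. The median at stage 14 as a share of the maximum was 44.9% for the onset at stage 12, 60.6% for the onset at stage 10 and 11.4% for the onset at stage 14. The maximum lay in the tailbud in 47.1% of the members, in 37.5% of the 64 models that began at stage 10 and in 84.5% of the 155 that began at stage 14. The rule itself ties onset to these shares. In the tailbud comparison 14.1% of the members fell, against 15.6% of the models with onset at stage 10 and 9.68% of those with onset at stage 14, and the medians were -0.58, -0.63 and -0.44. In the neurula comparison 5.29% of the members rose, against 3.12% and 38.7%, with medians of 0.55, 0.10 and 1.26. These shares rest on the same libraries, the differences between the onset sets were not tested, and nothing here is particular to the onset at stage 12.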

How the data were processed

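The authors deposited 1 table of TPM for 31357 gene models and 88 ERCC spike-ins in 18 libraries; all columns were matched to a library by stage. Per the submitters' processing notes, the tools were CASAVA 1.8.2, Trimmomatic, Bowtie and RSEM; their roles and the genome build are not stated in what was used here. Poly(A)+ RNA was captured on beads and amplified for 10 cycles, per the labels' protocols, so a value can also move with the length of the poly(A) tail. Read depth is unknown.

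Members were found by the rule given in the opening, on the TPM as deposited. The members and comparisons were chosen with earlier results of these data known. Models at 1 TPM or more in at least 2 libraries (23880) were tested in R 4.3.3 with limma 3.58.1, fitted to log2(TPM + 1), with 8 groups of stages, a mean-variance trend and Benjamini-Hochberg adjustment at 0.05, two-sided; such changes understate those of low models. Stages 10 and 12 were kept as groups of 1 library, so that the step that defines the members did not enter the spread. In each comparison up to 2 members that rose most and 2 that fell most are named, provided the adjusted p was under 0.05, the groups did not overlap and the higher group averaged 10 TPM or more. For the course, the 2 with the highest maximum at stage 33 and the 2 with the highest maximum by stage 14 are named. The labels do not state the number of clutches, so p-values measure only the spread between these libraries. Alternatives covered scaling, pseudocount, filter, the libraries in the fit and the onset rule; no gene lists were used, since models have no names.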

Additional observations from a re-analysis of the deposited data

Results flagged for a closer look

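Among the 5 early libraries, stage 0 stood apart for the members: 85 of them were listed at 0 there, against 167 to 196 at stages 2, 6, 6.5 and 7, and their median was 0.07 TPM, against 0 in the other 4. The same library held the one early value apart from the rest for XeXenL6RMv10029885m (0.11 TPM), XeXenL6RMv10037140m (0.17 TPM), XeXenL6RMv10045854m (0.2 TPM) and XeXenL6RMv10048195m (0.07 TPM), each listed at 0 in the other 4. With the other 4 at 0, any value above 0 would have stood apart, for these models as for the median, and all lie below the 0.5 TPM that the rule applied to these libraries. The share of about 1 in 20 that chance gives among the 10 values screened therefore has no meaning for these models or the median. The outcome was not fixed in this way for the count listed at 0, which sets 1 library against the other 4. Nothing is read from any of these values. Stage 0 is also the only early column with the suffix rr; its part in these values was not tested.

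The change within the tailbud differed from the change within the neurula in a share of the members. In the contrast of the 2 changes, 41 members had a tailbud change below their neurula change (18.1%, against 3.24% of all 23880 models) and 2 had one above it (0.881%, against 1.98%; limma adjusted p under 0.05). The rule used stage 14, the mean of the 4 tailbud libraries, the maximum and the low early libraries of the same fit. The maximum lay in the neurula in 116 members and in the tailbud in 107. Both sides of the contrast thus hold values the rule used, and nothing is read from the shares of all models. Of the 41, 40 had a positive neurula difference and a negative tailbud difference, with medians of -1.08 in the tailbud and 0.87 in the neurula. These signs and medians largely follow from picking the 41 by the contrast. Of all 227 members, 148 had the same pair of signs, and the share of all models with this pair was not computed. The contrast was -3.73 ± 0.37 (SE) on the log2 scale for XeXenL6RMv10034669m (limma adjusted p = 7.71e-05) and -3.03 ± 0.55 for XeXenL6RMv10007108m (limma adjusted p = 0.00457). It was 1.93 ± 0.47 for XeXenL6RMv10048195m (limma adjusted p = 0.0276) and 3.25 ± 0.78 for XeXenL6RMv10044668m (limma adjusted p = 0.0242), the 2 members with a tailbud change above their neurula change. Both met the rule's bound of 20 TPM only through the late tailbud, so nothing is read from their p-values. In the fit of the 8 neurula and tailbud libraries 1 of the 41 still passed and 0 of the 2. Over all 23880 models, 5 passed below and 4 above. At an unadjusted p under 0.05 that fit had 130 members and 6176 of all models. Scaled to the spike-ins 10 of the 41 passed and 0 of the 2, against 288 below and 310 above of 25003 models.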

How the results depend on the processing

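The number of models kept by the rule ranged from 176 to 347 over 10 alternatives and was within 1.5 times of 227 except for the 347 with spike-in scaling. In the tailbud the members called lower and higher were 49 and 12 with quantile normalization (over all 23880 models, 1072 and 1464). They were 3 and 2 with a pseudocount of 0.1 (105 and 317 over all) and 59 and 11 with a pseudocount of 5 (735 and 1175). With stages 10 and 12 as 1 group they were 6 and 1 (206 and 817). Leaving out the 5 libraries of the on/off pair was an alternative added after the data were seen. It leaves 1 library in the late tailbud, and the median change of the members was -0.60. Those called lower were 50 without a filter (690 of all 31357 models) and 21 with a filter of 5 TPM (188 of 18527). They were 21 in the fit of 8 libraries (440 of 23880) and 6 with spike-in scaling (149 of 25003). Those called higher were 13 with median-of-ratios scaling (1617 of 24158). Leaving out 1 library gave 9 to 35 lower and 1 to 5 higher (over all 23880 models, 153 to 436 and 522 to 1095). In the neurula the members called higher were 22 with median-of-ratios scaling (838 of all 24158 models). They were 3 with a pseudocount of 0.1 (444 of 23880) and 23 with a pseudocount of 5 (538 of 23880). With stages 10 and 12 as 1 group they were 4 (462 of 23880). They were 0 in the fit of 8 libraries (1 of 23880) and 1 without the 5 libraries of the on/off pair (87 of 23880). They were 2 to 38 without 1 library (159 to 1311 of 23880). Those called lower were 5 with median-of-ratios scaling (205 of 24158) and 0 to 1 without 1 library (54 to 104 of 23880). A fit of the 4 libraries of a comparison alone, with 2 residual degrees of freedom, called 0 of all 23880 models in limma and so 0 members. At an unadjusted p under 0.05 it had 124 members in the tailbud (6510 of all models) and 43 in the neurula (2801 of all models). The median change of the members moved most with spike-in scaling, to -0.21 in the tailbud and 1.18 in the neurula (0.69 over all models); without 1 library it lay between -0.64 and -0.51 in the tailbud and between 0.33 and 0.69 in the neurula. It kept its sign under all 17 alternatives of each comparison, as did the 6 named changes. Alternatives that altered only the filter, the trend or the libraries outside the compared groups could not move these changes. Their sign was fixed there and adds nothing. The cause of these differences was not tested. The smaller fits have fewer degrees of freedom and also leave out the early libraries held near 0, which cannot be told apart here. The median SD that limma used for the members was 0.31 in the fit of all 18 libraries and 0.26 in the fit of 8. It was 0.20 and 0.27 in the fits of the 4 tailbud and the 4 neurula libraries. No paired analysis was possible because the labels number no replicates.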
